A study of Homo sapiens with 12 samples.

Results

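Seminal plasma was set directly against TGFB3, one of the growth factors it carries, in Ect1 cells, a line of human ectocervical epithelium immortalised with papillomavirus oncogenes. The comparison was defined by the treatment labels and used 8 of the 12 arrays of the study. In 4 of them the cells had received 10% pooled human seminal plasma by volume, and in the other 4 recombinant TGFB3 at 5 ng/ml. The remaining 4 arrays were of cells in keratinocyte medium alone and served as the control, to show on which side of untreated cells each treatment lay. All groups were confluent monolayers in keratinocyte serum-free medium with EGF, pituitary extract and added calcium, harvested 10 h after the medium was changed. Each array read 1 biological replicate pooled from 4 wells, so that the replicates measure variation between cultures of 1 line with a pooled donor preparation, at 1 dose and 1 time.

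TGFB3 is a ligand of the TGF-beta receptor kinases, which phosphorylate SMAD2 and SMAD3. With SMAD4 these induce a set of genes in epithelium that includes the inhibitory SMAD7 and the pathway inhibitor PMEPA1, together with inhibitors of the cell cycle and matrix genes. Seminal plasma carries TGF-betas, much of them latent, and also a high concentration of zinc, prostaglandins, cytokines, proteases and polyamines, and it meets the ectocervix after intercourse. Zinc in excess activates the factor MTF1, which induces the metallothioneins and the zinc exporter SLC30A1.

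The arrays of the third and the fourth seminal plasma replicate differed in overall signal from the rest. The first principal component of the log2 signals over all 54613 probe sets held 36.5% of the variance and placed replicate 3 at 268 and replicate 4 at 183.3. Its values were 20.5 and -35.8 for replicates 1 and 2, and from -65.4 to -32.5 for the TGFB3 and control arrays. A signal below 16 was read for 8.01% of probe sets in replicate 3 and 12.8% in replicate 4, compared with 16.3% to 20.2% elsewhere. For named genes whose call changed when these 2 arrays were left out, the text gives that change. The label as squamous epithelium held in all 12 arrays: the basal keratins were bright, with KRT5 between 42025 and 52921 with seminal plasma, between 31305 and 49576 with TGFB3 and between 30577 and 42853 in medium. Markers of cells or RNA that could enter with seminal plasma were dim. The summed signal of 9 sperm and testis genes was 669 to 1043 with seminal plasma, 449 to 668 with TGFB3 and 424 to 665 in medium, and the summed signal of 9 leukocyte genes was 771 to 1389, 1112 to 1281 and 1341 to 1600 in the same groups. The protamine PRM2 stayed below 16 on every array. The sum over 8 prostate and seminal vesicle genes was 1413 to 2135 with seminal plasma, 962 to 1486 with TGFB3 and 1036 to 1413 in medium, and the part of carried-over RNA in the results was not tested. Of these 3 lists only the leukocyte gene CSF1R passed the direct test with all arrays, as lower with seminal plasma (limma adjusted p 0.0234, and 0.0576 without replicates 3 and 4). CD14, a monocyte receptor that epithelium can also express, was not called with all arrays (0.84, limma adjusted p 0.391) but passed as higher without those replicates (1.68, limma adjusted p 0.0227). Its signals were 492, 690, 436 and 77.8 with seminal plasma, against 229.1, 180.1, 168.1 and 159.8 with TGFB3 and 590, 586, 785 and 790 in medium.

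The direct comparison asks what the whole fluid did that the single growth factor did not, and the reverse. A gene was represented by its brightest probe set, and a difference was called at an adjusted p below 0.05 in limma over all probe sets. Of 19682 genes, 386 passed (1.96%), 238 of them higher with seminal plasma than with TGFB3 (1.21%) and 148 lower (0.752%). The median log2 fold change of all genes was 0.12. Set against medium with the same arrays, 107 of the 238 genes were higher than control with seminal plasma while TGFB3 did not pass, and 2, SPOCD1 and PTHLH, were higher with both treatments. A further 2 were lower than control with TGFB3, and the other 127 passed against control with neither treatment. Of the 148 lower genes, 53 were lower than control with seminal plasma, 15 were higher than control with TGFB3, and 80 passed against control with neither. Seminal plasma changed 640 genes against control (3.25%), 1.87% higher and 1.38% lower, and TGFB3 changed 58 (0.295%), 0.254% higher and 0.0406% lower. Over all probe sets, 1.73% passed in the direct test, 2.94% for seminal plasma against control and 0.19% for TGFB3 against control. Of the 945 probe sets called directly, 54.9% were higher with seminal plasma, but with each array centred on its median the share was 32.2% of 369, so the balance of directions depends on the scaling. These comparisons share arrays and are given to place each treatment, not as separate evidence.

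The direct calls differed in how far they depended on single arrays. Without seminal plasma replicates 3 and 4, 56 of the 238 higher genes and 34 of the 148 lower genes still passed, among 142 genes called in that fit (0.721%, with 0.442% higher and 0.279% lower). When the fit was repeated 12 times, each time without a different array, 24 higher and 11 lower genes passed every time, and these 35 genes also passed without both outlying arrays, after quantile normalization and with arrays weighted by quality in limma. The higher ones were MT1M, MMP1, IL13RA2, TRD, FJX1, SPOCD1, SH2D5, FAM110C, F12, ANTXR2, SH2D2A, TAFA1, MT1F, DOCK4, ZNHIT2, RRP12, WWTR1, ENTPD6, CSRP1, SPHK1, TIMP1, EXOSC4, TOMM40L and ABTB3. The lower ones were LFNG, SH2D3C, RTP4, TTLL1, PRSS23, IVNS1ABP, LRIG3, DIXDC1, HSF2BP, YPEL5 and BLOC1S2. Other settings kept fewer of the 35. With each array centred on its median, 11 of the 24 higher and 10 of the 11 lower genes passed. TIMP1, SPHK1, WWTR1, CSRP1, DOCK4, ANTXR2 and BLOC1S2 were among those lost. With the replicate number as a block, 20 of the 35 passed. When only the 8 arrays of both treatments entered the fit, 4 genes passed, MT1M and TAFA1 higher and RTP4 and HSF2BP lower. Any called gene named below that is absent from this set of 35 lost its call in at least 1 of the 12 fits. SLC30A1, FKBP5 and STARD4 are such genes. They passed without seminal plasma replicates 3 and 4 but not with each array centred on its median.

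The largest difference was in the metallothioneins, small cysteine-rich proteins that bind zinc and copper and whose genes lie together on chromosome 16. MT1M had signals of 19784, 5149, 16256 and 14028 in seminal plasma replicates 1 to 4, against 57.0, 19.9, 63.1 and 73.5 in TGFB3 replicates 1 to 4 and 34.5, 7.29, 58.7 and 42.7 in medium. The seminal plasma arrays were far above both other groups, and the TGFB3 and control arrays overlapped. The log2 fold change against TGFB3 was 8.01 ± 0.56 (SE from the spread shared by the 12 arrays, 4 per group; limma adjusted p 0.000653), a 258-fold difference. MT1F had 46204, 35782, 72745 and 54928 with seminal plasma, against 15200, 13509, 16921 and 19419 with TGFB3 and 11746, 15427, 13251 and 12337 in medium. Its seminal plasma arrays were again above both other groups, which overlapped (log2 fold change 1.65 ± 0.22, limma adjusted p 0.0131).

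Of 10 measured genes of the metallothionein list, which includes their activator MTF1, 3 passed in the direct test, all higher with seminal plasma, and none was lower. The median of the 10 was 1.19, and all 10 differences were positive. MT1E passed (1.45 ± 0.27, limma adjusted p 0.0346) but not without seminal plasma replicates 3 and 4 (0.96, limma adjusted p 0.0651). MT1G, MT1H, MT1X and MT2A had log2 differences of 1.52, 1.17, 1.21 and 1.13 with limma adjusted p of 0.0525, 0.0622, 0.0629 and 0.063, and each of these 4 was higher than control with seminal plasma. MT2A illustrates the spread: its signals were 77064, 59217, 151732 and 103168 with seminal plasma, against 39971, 33945, 44326 and 51884 with TGFB3 and 32736, 41229, 33860 and 30554 in medium. Every seminal plasma array lay above every TGFB3 array, and replicates 3 and 4 were the highest. The probe sets of MT1E, MT1F, MT1G, MT1H, MT1X and MT2A carry the suffix that Affymetrix gives to probes shared with other transcripts, so that signal may be shared among these near-identical genes, while that of MT1M does not. MT3, the form best known from brain (0.97, 95% interval -0.06 to 2.00), MT4, known from stratified squamous epithelium (1.00, -0.57 to 2.58), and MTF1 itself (0.27, -0.11 to 0.66) were not called.

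The transporters that move zinc were mixed. SLC30A1, which exports zinc across the plasma membrane, had signals of 9530, 5279, 2285 and 3472 with seminal plasma, against 874, 1372, 1415 and 860 with TGFB3 and 921, 1002, 908 and 881 in medium. All seminal plasma arrays lay above the TGFB3 and control arrays, which overlapped each other. Here seminal plasma replicates 1 and 2 were the higher ones (2.02 ± 0.38, limma adjusted p 0.0341, and 2.69 with an adjusted p of 0.0125 without replicates 3 and 4). SLC30A2, a vesicular zinc transporter, was also higher (3.41 ± 0.68, limma adjusted p 0.0394), and SLC39A10, a plasma membrane zinc importer, was lower (-2.48 ± 0.46, limma adjusted p 0.0326). The calls of SLC30A2 and SLC39A10 were lost without seminal plasma replicates 3 and 4 (limma adjusted p 0.195 and 0.0609). The other 18 of 21 measured zinc transporters were not called. HMOX1, haem oxygenase 1, which answers to oxidants, metals and haem, was the 1 called gene of 20 in the NRF2 and heat shock list. Its signals were 12605, 675, 3981 and 1961 with seminal plasma, against 287, 306, 254 and 248.9 with TGFB3 and 226, 198, 189 and 127 in medium. The seminal plasma arrays ran over a wide range but did not meet the TGFB3 arrays (3.39 ± 0.69, limma adjusted p 0.0415, and 0.161 without replicates 3 and 4).

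**Figure D1:**
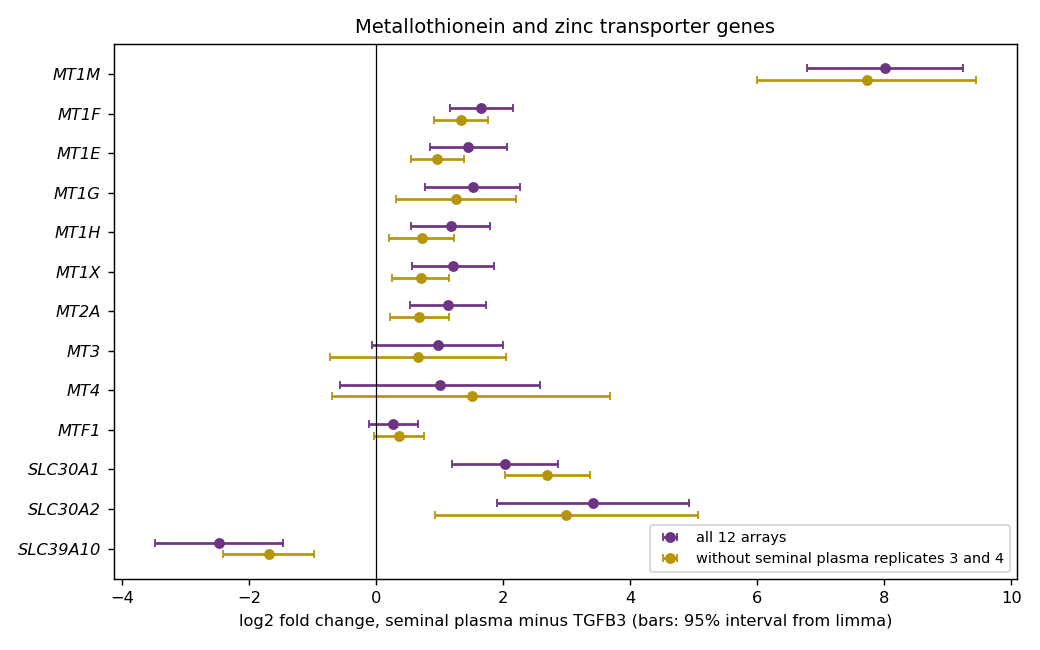
Direct log2 fold change, seminal plasma minus TGFB3 (horizontal axis), for the metallothionein list and for called zinc transporters (rows), with 95% intervals from limma, in all 12 arrays (purple) and without seminal plasma replicates 3 and 4 (ochre). MT1M stands at 8.01, the other metallothioneins lie between 0.97 and 1.65, and SLC39A10 lies on the other side of 0.

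The promoters of MT2A, MT1X and SLC30A1 are shown because the metal response element, the short site through which MTF1 acts, can be read in them. No promoter was listed for the called metallothioneins MT1M, MT1F and MT1E. MT2A and MT1X were not called in the direct test. The 250 bases before the transcription start were taken from RefSeq (GRCh38.p14), and capitals mark each TGCACNC or TGCGCNC on either strand, overlapping matches included. MT2A (chr16:56608334-56608583, plus strand) held 7, MT1X (chr16:56682220-56682469, plus strand) 4 and SLC30A1 (chr1:211579162-211579411, minus strand) 1.
MT2A: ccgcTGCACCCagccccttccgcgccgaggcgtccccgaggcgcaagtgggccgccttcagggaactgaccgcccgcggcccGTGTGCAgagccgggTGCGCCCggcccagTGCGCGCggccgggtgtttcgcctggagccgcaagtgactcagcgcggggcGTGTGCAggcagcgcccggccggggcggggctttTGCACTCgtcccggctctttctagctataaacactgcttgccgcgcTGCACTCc
MT1X: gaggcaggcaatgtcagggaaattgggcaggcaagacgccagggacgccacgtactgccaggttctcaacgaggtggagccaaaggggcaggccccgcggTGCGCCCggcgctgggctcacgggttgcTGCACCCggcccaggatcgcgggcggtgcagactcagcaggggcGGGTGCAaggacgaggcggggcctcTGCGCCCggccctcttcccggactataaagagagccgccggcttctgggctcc
SLC30A1: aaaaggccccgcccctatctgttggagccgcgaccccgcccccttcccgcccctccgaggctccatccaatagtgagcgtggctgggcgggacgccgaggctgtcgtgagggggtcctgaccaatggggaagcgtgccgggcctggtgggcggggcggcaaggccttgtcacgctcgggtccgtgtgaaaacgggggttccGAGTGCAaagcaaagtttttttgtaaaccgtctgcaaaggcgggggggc
Of the 6 metallothionein list genes with a promoter in the table, 5 held 3 or more of these letters, as did 1.94% of all 27305 genes there, while 28.5% held at least 1, as SLC30A1 did. A match is a description of the letters and not of binding.

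Genes for the breakdown of extracellular matrix differed in both directions. MMP1, the interstitial collagenase, had signals of 14910, 5802, 29408 and 28253 with seminal plasma, against 655, 174.2, 227 and 351 with TGFB3 and 348, 430, 224 and 212 in medium. The TGFB3 arrays lay over the range of the controls, and the difference was 5.73 ± 0.56 on the log2 scale (limma adjusted p 0.00356). TIMP1, a tissue inhibitor of metalloproteinases, was higher in parallel, at 14404, 14721, 15266 and 18551 with seminal plasma, against 7762, 5148, 4841 and 7025 with TGFB3 and 5755, 7213, 6308 and 5919 in medium. All seminal plasma arrays were above both other groups, which overlapped each other (1.37 ± 0.19 against TGFB3, limma adjusted p 0.0136). MMP3, stromelysin 1, was called (1.93 ± 0.42, limma adjusted p 0.0486), but not without seminal plasma replicates 3 and 4 (0.151). TIMP3 and MMP28, an epidermal metalloproteinase, were lower with seminal plasma (MMP28 by -2.28 ± 0.49, limma adjusted p 0.0486, and 0.145 without replicates 3 and 4). TIMP3, a matrix-bound inhibitor, had 318, 460, 226 and 172.3 with seminal plasma, against 894, 1118, 795 and 1087 with TGFB3 and 752, 650, 540 and 559 in medium. All seminal plasma arrays were below both other groups (-1.81 ± 0.28 against TGFB3, limma adjusted p 0.0233).

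Cytokine receptors gave 3 calls among 18, all higher with seminal plasma. IL13RA2, a decoy receptor for interleukin 13, had 856, 391, 595 and 1120 with seminal plasma, against 77.0, 14.3, 34.7 and 10.6 with TGFB3 and 12.2, 22.3, 11.04 and 23.7 in medium. Since values below 16 were raised to 16, the difference of 4.58 ± 0.50 is understated (limma adjusted p 0.00544). IL1RL1, the receptor of interleukin 33, was higher by 3.76 ± 0.59 (limma adjusted p 0.0233), with 4102, 370, 2327 and 1431 in the seminal plasma arrays, against 101.4 to 123.9 in the TGFB3 arrays and 59.6 to 122.8 in medium. Its lowest seminal plasma array was still above every TGFB3 array, but the call was lost without replicates 3 and 4 (limma adjusted p 0.106). IL1R1, the signalling receptor of interleukin 1, was higher by 1.38 ± 0.25 (limma adjusted p 0.0314, and 0.0762 without these 2 arrays). Of 28 cytokines and chemokines, 0 passed the direct test in limma and 8 had an unadjusted p below 0.05, 4 in each direction. Without replicates 3 and 4, IL33, an alarmin of epithelium, passed as higher (2.80, limma adjusted p 0.0279, against 1.67 and 0.169 with all arrays). CXCL8 differed by 1.94 with a 95% interval of -0.45 to 4.34, IL6 by 0.19 (-0.73 to 1.11) and CCL20 by 0.59 (-0.77 to 1.96). PTGS2, the inducible prostaglandin synthase, had 4721, 1919, 1838 and 3982 with seminal plasma, against 1455, 1470, 1463 and 575 with TGFB3 and 321, 454, 264 and 325 in medium. The treatments did not overlap, yet the difference of 1.30 (95% interval 0.42 to 2.18) was not called (limma adjusted p 0.107).

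**Figure D2:**
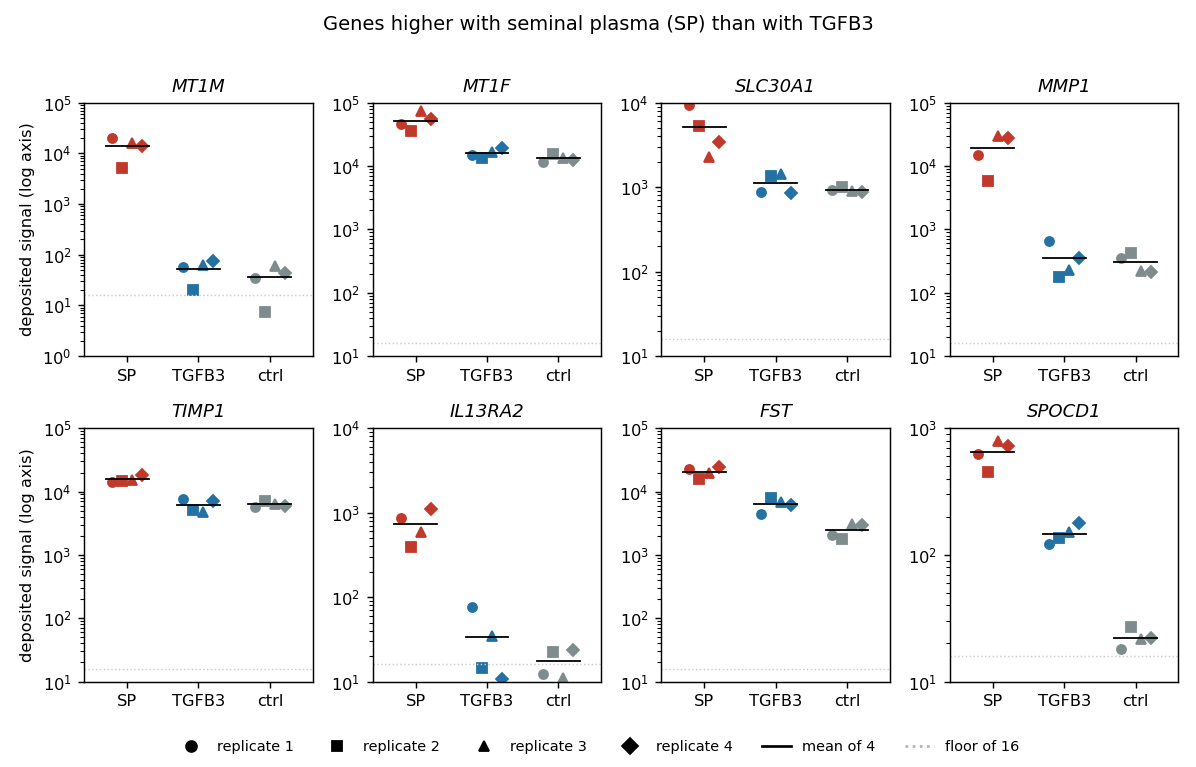
Deposited signal (vertical axis, log scale) of 8 genes higher with seminal plasma than with TGFB3, by treatment (horizontal axis), with 1 symbol per replicate, a line at the mean of 4 arrays and a dotted line at the floor of 16. In every panel the seminal plasma arrays lie above all TGFB3 arrays, and in MT1M, MT1F, SLC30A1, MMP1, TIMP1 and IL13RA2 the TGFB3 arrays overlap the control arrays.

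SPOCD1 and PTHLH were higher than control with TGFB3 and higher again with seminal plasma. SPOCD1, a nuclear protein known from the silencing of transposons in the mouse germ line, had 622, 451, 795 and 725 with seminal plasma, against 121.5, 135.4, 151.5 and 179.1 with TGFB3 and 18.1, 27.0, 21.6 and 22.2 in medium. The 3 groups did not overlap, and the direct difference was 2.12 ± 0.22 (limma adjusted p 0.00404). PTHLH, parathyroid hormone-like hormone, a TGF-beta target in many epithelial cells, was higher by 0.88 ± 0.18 in the direct test (limma adjusted p 0.0458), which was lost without replicates 3 and 4 (0.131). FST, follistatin, which binds and neutralises activins, had 22720, 15917, 19612 and 24532 with seminal plasma, against 4378, 7821, 6856 and 6223 with TGFB3 and 2044, 1779, 3055 and 2943 in medium. The order of groups was the same as for SPOCD1 with no overlap (direct difference 1.72 ± 0.25, limma adjusted p 0.0181, and 0.0678 without replicates 3 and 4), while TGFB3 against control did not pass for FST (1.37, limma adjusted p 0.073). ANTXR2, an anthrax toxin receptor that binds collagen and laminin, had 5825, 3651, 3161 and 4193 with seminal plasma, against 944, 1107, 1219 and 1252 with TGFB3 and 618, 500.5, 497 and 545 in medium (1.87 ± 0.20, limma adjusted p 0.00517). TGFB3 against control did not pass for it either (1.06, limma adjusted p 0.0837).

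Further genes of the 24 that passed as higher in every fit with 1 array left out had various roles. SPHK1, the kinase that makes sphingosine 1-phosphate, had 10604, 9420, 11755 and 10857 with seminal plasma, against 2982, 5196, 4461 and 4160 with TGFB3 and 2173, 2429, 2220 and 2332 in medium. Its seminal plasma arrays were tight and far from the others (1.37 ± 0.18, limma adjusted p 0.0118). WWTR1, the transcriptional coactivator TAZ, had 2543, 2339, 3032 and 3269, against 1002, 870, 835 and 1272 with TGFB3 and 1081, 1264, 1398 and 1610 in medium (1.50 ± 0.20, limma adjusted p 0.0118). CSRP1, a LIM protein of actin bundles, differed by 1.42 ± 0.16 (limma adjusted p 0.00555) and DOCK4, an exchange factor for Rac, by 1.60 ± 0.21 (limma adjusted p 0.0129). TAGLN, transgelin, an actin-binding protein outside the 24 and the 1 called member of 16 in the actin list, differed by 2.06 ± 0.33 (limma adjusted p 0.0233, and 0.105 without replicates 3 and 4). The secreted coagulation factor gene F12 had 3203, 2774, 5260 and 4531 with seminal plasma, against 910, 993, 1229 and 1063 with TGFB3 and 1360, 1512, 1676 and 1645 in medium. Here the seminal plasma arrays were above the controls, and all TGFB3 arrays were below them (1.87 ± 0.21, limma adjusted p 0.00634).

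The same placement on either side of the controls was seen for FJX1, which encodes a secreted relative of the Drosophila kinase four-jointed. It had 3053, 2534, 5346 and 6101 with seminal plasma, against 718, 620, 727 and 1042 with TGFB3 and 1450, 1512, 1912 and 1808 in medium (2.39 ± 0.29, limma adjusted p 0.00873). Against control, seminal plasma passed (1.26, limma adjusted p 0.0477) and TGFB3 did not (-1.12, 0.241). RRP12 and EXOSC4, which act in ribosomal RNA processing and the RNA exosome, and TOMM40L, of the mitochondrial import family, differed by 1.50 ± 0.16, 1.33 ± 0.17 and 1.32 ± 0.15 (limma adjusted p 0.00536, 0.0105 and 0.00644). SH2D5 and SH2D2A, adaptors with an SH2 domain, differed by 2.11 ± 0.20 and 1.76 ± 0.23 (limma adjusted p 0.00276 and 0.0118). The other genes of this set were FAM110C (1.95), TAFA1 (1.73), ZNHIT2 (1.51), ENTPD6 (1.46) and ABTB3 (1.30), with limma adjusted p between 0.00323 and 0.0193. All 4 TGFB3 arrays of TAFA1 were below 16, so that its fitted 1.73 depends on the floor.

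Among the 14 genes with the largest higher differences, MT1M, MMP1, IL13RA2, IL1RL1, SLC30A2 and HMOX1 are described above. The other 8 were dim with TGFB3. They were RPPH1, the RNA component of ribonuclease P (3.80), AGPAT9, an acyltransferase of glycerolipid synthesis (3.16), TRD, the T cell receptor delta locus (3.15), CMTM1 (3.02), hCG_1776259 (2.97), ZRSR2P1 (2.97), SUSD4 (2.82) and NR1H4, the bile acid receptor (2.68). The TGFB3 arrays of RPPH1 and NR1H4 were all below 16, so that both fitted differences depend on the floor. RPPH1 had 460, 27.0, 479 and 410 with seminal plasma, with replicate 2 far below the other arrays, and its limma adjusted p was 0.0408 with all arrays and 0.217 without replicates 3 and 4. The calls of AGPAT9, CMTM1 and hCG_1776259 were also lost without them (limma adjusted p 0.0941, 0.0646 and 0.223). Of the 14, 7 passed without these 2 arrays, 11 passed for seminal plasma against control, and 0 passed for TGFB3 against control in limma, where 1 had an unadjusted p below 0.05.

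In the other direction stood genes that were called higher than control with TGFB3 and were not called against control with seminal plasma. SMAD7, the inhibitory SMAD that closes the feedback loop on the receptor, had 586, 462, 272 and 348 with seminal plasma, against 926, 1724, 1498 and 1212 with TGFB3 and 299, 358, 305 and 260.2 in medium. The treatments did not overlap (-1.71 ± 0.27, limma adjusted p 0.0233, and 0.0673 without replicates 3 and 4). Seminal plasma against control did not pass for SMAD7 (0.40, limma adjusted p 0.376), whereas TGFB3 did (2.10, limma adjusted p 0.0127).

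4 such genes were in the set that passed in every fit with 1 array left out. LFNG, a glycosyltransferase that modifies Notch receptors, had 11.4, 27.5, 49.3 and 30.6 with seminal plasma, against 165.8, 382, 502 and 436 with TGFB3 and 59.8, 74.8, 26.7 and 35.6 in medium (-3.59 ± 0.46, limma adjusted p 0.0117). DIXDC1, a DIX domain protein of Wnt signalling, had 388, 373, 301 and 282 with seminal plasma, against 1147, 1295, 1025 and 1398 with TGFB3 and 390, 460.5, 393 and 414 in medium (-1.86 ± 0.16, limma adjusted p 0.00253). Its seminal plasma and control arrays lay side by side, with a difference from control of -0.31 (limma adjusted p 0.263). HSF2BP, known as a binding partner of HSF2 and BRCA2, had 582, 752, 558 and 662 with seminal plasma, against 2086, 1951, 2141 and 2096 with TGFB3 and 976, 719, 762 and 728 in medium (-1.70 ± 0.16, limma adjusted p 0.00276). IVNS1ABP, a kelch protein that binds actin, had 1788, 2211, 822 and 978 with seminal plasma, against 5441, 6285, 5866 and 7114 with TGFB3 and 1647, 1501, 1220 and 1411 in medium (-2.20 ± 0.29, limma adjusted p 0.0130).

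NEDD9 and TGM2 were higher than control with TGFB3 and lower with seminal plasma than with TGFB3, but were called less often when arrays were left out. NEDD9, a scaffold of focal adhesions, had 590, 307, 385 and 286 with seminal plasma, against 829, 2299, 2263 and 1108 with TGFB3 and 131.2, 130.2, 136.2 and 155.9 in medium. All seminal plasma arrays lay between those of the other groups (-1.98 ± 0.35 against TGFB3, limma adjusted p 0.0305, and 0.131 without replicates 3 and 4). TGM2, tissue transglutaminase, differed by -1.70 ± 0.36 (limma adjusted p 0.047, and 0.214 without them). The receptor gene TGFBR1 was also lower with seminal plasma, with 2602, 2423, 1561 and 1925, against 3952, 4708, 5371 and 5147 with TGFB3 and 2150, 2881, 2886 and 2635 in medium (-1.19 ± 0.20, limma adjusted p 0.0254, and 0.0586 without replicates 3 and 4). In the list of SMAD feedback and TGF-beta pathway genes, 2 of 25 passed, SMAD7 and TGFBR1, both lower, with a list median of -0.36. In the list of TGF-beta target genes, with a median of -0.33 over 27 genes, PTHLH passed as higher and NEDD9 as lower. Without replicates 3 and 4, 0 genes of these 2 lists passed in limma, and 13 of 52 had an unadjusted p below 0.05, 11 of them lower.

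Regulators of the cell cycle that TGF-beta uses to arrest epithelial cells were called in 5 of 22 cases. The inhibitors CDKN2B (p15) and CDKN2C (p18) and the stress gene GADD45A were lower with seminal plasma, and the drivers CCND1 (cyclin D1) and CDC25A were higher. CDKN2B had 542, 244.6, 158.3 and 254 with seminal plasma, against 812, 2343, 1998 and 1247 with TGFB3 and 449, 458, 391 and 374 in medium (-2.45 ± 0.40, limma adjusted p 0.0243). CCND1 had 6787, 6353, 13385 and 12458 with seminal plasma, against 2708, 1645, 1555 and 3846 with TGFB3 and 5441, 5385, 5260 and 5102 in medium (2.02 ± 0.33, limma adjusted p 0.0248). For CCND1 the seminal plasma arrays were above all controls and the TGFB3 arrays were below them, although neither treatment passed against control (limma adjusted p 0.173 and 0.277). GADD45A differed by -1.15 ± 0.19, CDKN2C by -1.30 ± 0.25 and CDC25A by 1.72 ± 0.28 (limma adjusted p 0.0265, 0.0348 and 0.0241). None of the 5 passed without seminal plasma replicates 3 and 4, where their limma adjusted p lay between 0.0565 and 0.124. In the list of 26 mitosis and DNA replication genes 0 passed in limma, and 11 had an unadjusted p below 0.05, 9 of them lower.

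In the list of mesenchymal transition and matrix genes, the median difference of 27 measured genes was -0.63, with 8 differences above 0, and in 10 of them all seminal plasma arrays were below all TGFB3 arrays, as in 4.8% of all genes. A single member passed, LOX, which cross-links collagen. LOX had 154.6, 606, 99.4 and 138.6 with seminal plasma, against 2559, 6807, 7729 and 1890 with TGFB3 and 1504, 1185, 246 and 356 in medium. Both treatments and the controls spread widely, and the difference was -4.40 ± 0.76 (limma adjusted p 0.0287, and 0.143 without replicates 3 and 4). FN1, fibronectin, had 10249, 16458, 4070 and 5855 with seminal plasma, against 28507, 25488, 31941 and 30347 with TGFB3 and 11981, 11449, 6309 and 4898 in medium. The treatments did not overlap, and the difference of -1.86 (95% interval -2.81 to -0.92) just missed the threshold (limma adjusted p 0.0567). ID3, an inhibitor of helix-loop-helix factors that answers to BMP and TGF-beta, was lower with seminal plasma, at 1658, 2482, 284 and 396, against 9571, 7166, 9685 and 7303 with TGFB3 and 5928, 4890, 2158 and 2437 in medium (-3.34 ± 0.65, limma adjusted p 0.0369, and 0.0862 without replicates 3 and 4). With FST, it made up the 2 calls among 18 BMP, activin and ID genes. Of 16 integrin and laminin-332 genes 0 passed in limma, and 6 had an unadjusted p below 0.05, all lower.

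**Figure D3:**
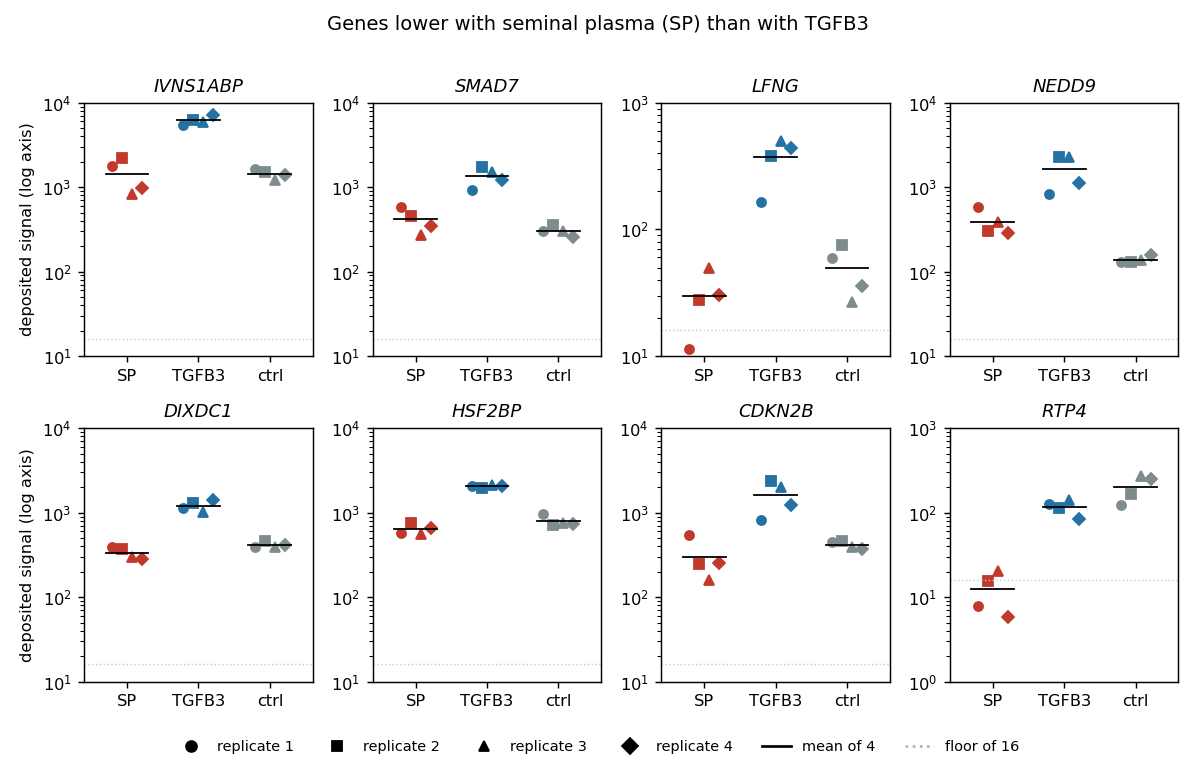
Deposited signal (vertical axis, log scale) of 8 genes lower with seminal plasma than with TGFB3, by treatment (horizontal axis), with 1 symbol per replicate, a line at the mean of 4 arrays and a dotted line at the floor of 16. For IVNS1ABP, DIXDC1 and HSF2BP the TGFB3 arrays alone are high, and for RTP4 the seminal plasma arrays alone are low.

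Of the other large lower differences, several rested on TGFB3 replicates 2 and 3, which were far above replicates 1 and 4. OLR1, a receptor for oxidised lipoprotein, had 287, 376, 216 and 73.0 with seminal plasma, against 806, 5747, 6439 and 891 with TGFB3 and 663, 805, 548 and 631 in medium. KCTD11, an adaptor of cullin 3 ligases, had 285, 325, 232 and 70.3 with seminal plasma, against 1189, 4368, 4304 and 1068 with TGFB3 and 421, 424, 169.2 and 169.1 in medium. Over the 148 lower genes, TGFB3 replicates 2 and 3 were both above replicates 1 and 4 in 54.1%, against 21.6% of all genes, and seminal plasma replicates 3 and 4 were both below replicates 1 and 2 in 51.4%, against 24.9% of all genes. The 238 higher genes were similar. In 54.6% of them seminal plasma replicates 3 and 4 were both above replicates 1 and 2, against 29.7% of all genes. TGFB3 replicates 2 and 3 were both below replicates 1 and 4 in 32.4%, against 21.6% of all genes. The differences of OLR1 and KCTD11 were -3.48 ± 0.74 and -3.49 ± 0.64 (limma adjusted p 0.0469 and 0.0327, and 0.218 and 0.132 without seminal plasma replicates 3 and 4). PNRC1, a nuclear receptor coregulator (-3.44), ANG, angiogenin (-2.90), FILIP1L (-2.90), RDH16, a retinol dehydrogenase (-2.90), CIMAP1C (-2.76) and ULK1, a kinase that starts autophagy (-2.66), were among the 14 largest lower differences, as were LOX, LFNG, ID3, SH2D3C and RTP4. All but 1 seminal plasma array of ANG were below 16, so that its fitted difference depends on the floor. Without seminal plasma replicates 3 and 4 the calls of ANG, FILIP1L, RDH16 and CIMAP1C were lost (limma adjusted p 0.25, 0.126, 0.0535 and 0.161). Of these 14, 5 passed without seminal plasma replicates 3 and 4, 3 passed for seminal plasma against control and 2 for TGFB3 against control.

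Some interferon-stimulated genes were lower with seminal plasma than in both other groups. The list, which encodes sensors and effectors of antiviral defence, had a median difference from TGFB3 of -0.41 over 34 measured genes, and 4 passed, RTP4, OASL, IFIH1 and DDX60, all lower, while 8 of the 34 differences were above 0. RTP4, a chaperone of membrane receptors induced by interferon, had 7.86, 15.4, 20.6 and 5.85 with seminal plasma, against 125.8, 113.3, 141.8 and 84.7 with TGFB3 and 122.8, 165.1, 273 and 254 in medium. It was at or near the floor of 16 with seminal plasma on every array, so the difference of -2.75 ± 0.27 is understated (limma adjusted p 0.00356). OASL, an oligoadenylate synthetase-like protein, had 440, 914, 531 and 391 with seminal plasma, against 1664, 2166, 2430 and 2708 with TGFB3 and 2003, 1668, 3788 and 3760 in medium (-2.04 ± 0.35, limma adjusted p 0.027). IFIH1, the RNA sensor MDA5, had 277, 454, 362 and 388 with seminal plasma, against 642, 669, 747 and 627 with TGFB3 and 763, 763, 822 and 920 in medium (-0.88 ± 0.17, limma adjusted p 0.0369). In all 3 genes the seminal plasma arrays were below every array of the other groups. DDX60, a helicase of RNA sensing, differed by -1.49 ± 0.32 (limma adjusted p 0.0485). Without replicates 3 and 4 RTP4 alone passed, and OASL, IFIH1 and DDX60 had limma adjusted p of 0.12, 0.0869 and 0.195.

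Against control, 11 of the 34 interferon-stimulated genes were lower with seminal plasma and 0 passed in limma with TGFB3, whose list median against control was nevertheless -0.48 with 3 of 34 differences above 0. At an unadjusted p below 0.05, 8 of the 34 passed with TGFB3, 7 of them lower. IFIT1 had signals of 108.6, 375, 371 and 63.1 with seminal plasma, against 932, 432, 666 and 1618 with TGFB3 and 1193, 1203, 3453 and 3166 in medium. Its direct difference of -2.21 (95% interval -3.67 to -0.75) was not called (limma adjusted p 0.102).

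The promoters of called interferon-stimulated genes are shown because they carry the interferon-stimulated response element, through which the ISGF3 and IRF factors act. In the 250 bases before the start (RefSeq, GRCh38.p14), capitals mark GAAA, any 2 bases and GAAA again, on either strand, overlapping matches joined. RTP4 (chr3:187368135-187368384, plus strand) held 2, IFIH1 (chr2:162318685-162318934, minus strand) 3, of which a pair overlaps, and DDX60 (chr4:168318753-168319002, minus strand) 2.
RTP4: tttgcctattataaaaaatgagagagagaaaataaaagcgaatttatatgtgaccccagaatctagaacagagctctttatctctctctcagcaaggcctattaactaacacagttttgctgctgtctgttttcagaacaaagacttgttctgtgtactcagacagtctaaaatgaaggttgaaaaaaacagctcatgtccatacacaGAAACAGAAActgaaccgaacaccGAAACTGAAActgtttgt
IFIH1: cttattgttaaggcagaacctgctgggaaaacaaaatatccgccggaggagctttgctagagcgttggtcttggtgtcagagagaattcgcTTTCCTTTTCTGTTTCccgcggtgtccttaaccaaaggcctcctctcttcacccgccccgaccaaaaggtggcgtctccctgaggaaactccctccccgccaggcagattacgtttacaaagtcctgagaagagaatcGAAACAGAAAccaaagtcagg
DDX60: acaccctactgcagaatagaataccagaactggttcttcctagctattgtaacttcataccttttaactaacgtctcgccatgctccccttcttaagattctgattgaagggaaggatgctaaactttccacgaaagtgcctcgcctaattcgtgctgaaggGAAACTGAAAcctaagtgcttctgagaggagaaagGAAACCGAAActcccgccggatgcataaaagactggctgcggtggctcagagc
Of the 27 list genes with a promoter in the table, 19 held at least 1 match, against 3.71% of all 27305 genes, and 12 held 2 or more, against 0.275%. The letters describe the list of genes and say nothing of which factor acted here.

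Further genes were lower with seminal plasma than in both other groups. FKBP5 and TSC22D3, classic targets of the glucocorticoid receptor, were the 2 calls of 13 in that list. FKBP5 had 7432, 8052, 5669 and 5273 with seminal plasma, against 12057, 14557, 15185 and 14399 with TGFB3 and 14129, 13595, 17037 and 15383 in medium (-1.11 ± 0.18, limma adjusted p 0.0233, and 0.0406 without replicates 3 and 4). TSC22D3 differed by -2.05 ± 0.32 (limma adjusted p 0.0233, and 0.093 without them). STARD4, a carrier of cholesterol, was the 1 call of 23 in the cholesterol list (-1.74 ± 0.29, limma adjusted p 0.0266, and 0.0204 without them). UGT1A6, a glucuronosyltransferase induced through the aryl hydrocarbon receptor, was the 1 call of 8 in that list (-1.38 ± 0.21, limma adjusted p 0.0209, and 0.0279 without them), with a probe set that may also read other UGT1A transcripts. SH2D3C, an adaptor of Cas proteins, had 9.41, 19.0, 23.5 and 11.8 with seminal plasma, against 62.2, 184.3, 302 and 151.5 with TGFB3 and 100.7, 102, 128.7 and 130.9 in medium (-3.04 ± 0.39, limma adjusted p 0.0118). LRIG3, a membrane protein of receptor turnover, differed by -1.94 ± 0.25 and TTLL1, a tubulin ligase subunit, by -2.43 ± 0.30 (limma adjusted p 0.0118 and 0.00897).

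PRSS23, a secreted serine protease, had 3511, 3271, 1474 and 1630 with seminal plasma, against 8805, 9882, 10354 and 15317 with TGFB3 and 5783, 5273, 5454 and 5305 in medium. Seminal plasma lay below and TGFB3 above every control array (-2.24 ± 0.30, limma adjusted p 0.013). YPEL5 (-1.45 ± 0.18, limma adjusted p 0.00873) and BLOC1S2, a subunit of complexes that place lysosomes (-1.05 ± 0.14, limma adjusted p 0.0131), completed the 11 lower genes that passed with any 1 array left out.

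A total of 32 genes passed against control with both treatments, 28 higher and 4 lower, and every one lay on the same side. Both comparisons used the same 4 control arrays. Of these 32, 2 were called in the direct test and 30 were not, while 1.96% of all 19682 genes were called. Most genes had no direct call, so this count does not set the 32 genes apart. PMEPA1 had 12209, 7157, 14829 and 16405 with seminal plasma, against 9295, 12858, 15029 and 13035 with TGFB3 and 834, 727, 910 and 866 in medium. The treatments overlapped fully, and the difference of -0.03 had a 95% interval of -0.61 to 0.54. For INHBA, a subunit of activin A, the difference was 0.56 (-0.36 to 1.47), for AMIGO2, an adhesion protein, -0.50 (-1.18 to 0.18), for NLRP1, an inflammasome sensor of keratinocytes, -0.46 (-1.26 to 0.33), and for MGC16121 -0.34 (-1.07 to 0.39). Intervals that reach past 1 log2 unit leave room for a difference, which a missed threshold does not settle. IGFBP3, which binds insulin-like growth factors, had -0.90 (-2.10 to 0.30).

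For some of these shared genes the interval did not include 0. MMP10, stromelysin 2, had 5429, 1400, 4883 and 2827 with seminal plasma, against 1173, 2079, 1740 and 1436 with TGFB3 and 258, 230.8, 114.7 and 186.7 in medium (1.03, 95% interval 0.09 to 1.97, limma adjusted p 0.19). FOXL1, a forkhead factor, had 539, 544, 778 and 653, against 264, 376, 379 and 375 with TGFB3 and 37.4, 27.4, 50.5 and 76.7 in medium, without overlap (0.85, 0.20 to 1.50, limma adjusted p 0.134). CHRNA9, a subunit of nicotinic receptors, had 239, 198, 240.2 and 104.9, against 674, 540, 516 and 806 with TGFB3 and 125.5, 28.2, 49.5 and 37.5 in medium, also without overlap between the treatments (-1.75, -2.72 to -0.78, limma adjusted p 0.0685). ITGB6, the beta subunit of the integrin that releases latent TGF-beta, differed by -1.15 (-1.74 to -0.56, limma adjusted p 0.0581). Apart from PMEPA1, MMP10 and ITGB6, these shared genes were chosen after their values were seen.

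**Figure D4:**
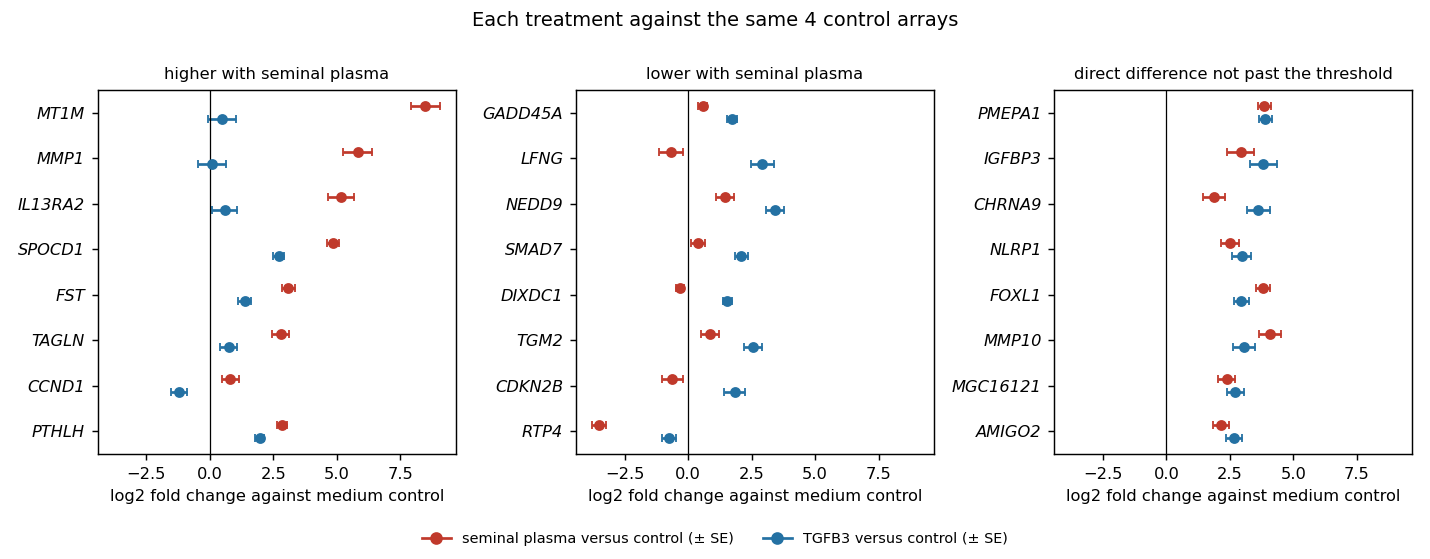
Log2 fold change against medium control (horizontal axis, ± SE) with seminal plasma (red) and with TGFB3 (blue) for 24 genes in 3 panels: called higher with seminal plasma than with TGFB3, called lower, and raised by both with no called direct difference. Both treatments were set against the same 4 control arrays; MT1M, MMP1 and IL13RA2 moved with seminal plasma while TGFB3 stayed near 0, and the reverse holds for DIXDC1 and LFNG.

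The remaining lists had few or no calls, beside 1.96% of all genes. FOSL1, an AP-1 subunit, was the 1 call of 24 EGF receptor and MAPK genes. It had 9248, 5908, 5062 and 4943 with seminal plasma, against 923, 2296, 1689 and 1548 with TGFB3 and 1085, 989, 2097 and 2015 in medium (1.99 ± 0.35, limma adjusted p 0.0306, and 0.0741 without replicates 3 and 4). NFKBIA, the inhibitor of NF-kappaB, was the 1 call of 16 in its list (0.97 ± 0.21, limma adjusted p 0.0496), ATP13A3, a transporter linked to polyamine uptake, the 1 of 13 polyamine genes (1.22 ± 0.22, limma adjusted p 0.032), and XBP1, a factor of the unfolded protein response, the 1 of 17 stress genes (-1.06 ± 0.23, limma adjusted p 0.0479). KRT18, a simple-epithelial keratin, was the 1 of 6 columnar markers (0.87 ± 0.18, limma adjusted p 0.0467), and CSF1R the 1 of 9 leukocyte markers (-1.59 ± 0.25, limma adjusted p 0.0234). Each of these calls was lost without seminal plasma replicates 3 and 4, with limma adjusted p between 0.0576 and 0.171. In limma 0 genes passed among 25 of the prostaglandin and cAMP response, 19 of hypoxia and glycolysis, 22 of squamous differentiation, 15 mucosal antimicrobial genes and 16 p53 targets. At an unadjusted p below 0.05 these lists held 8, 7, 3, 2 and 2 genes in that order. Among markers, 0 of 12 for squamous keratinocytes, 9 for sperm and testis, 8 for prostate and seminal vesicle, 7 for fibroblasts and 4 for endothelium passed in limma, with 7, 1, 1, 1 and 1 at an unadjusted p below 0.05. The summed signal of the columnar markers was 39966 to 51112 with seminal plasma, 25000 to 33993 with TGFB3 and 24839 to 31228 in medium, and its part in the call of KRT18 was not tested.

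Array by array, the median metallothionein level on the log2 scale, less the control mean, was 1.36, 0.79, 2.26 and 1.74 with seminal plasma, against 0.26, 0.01, 0.35 and 0.56 with TGFB3, and the groups did not overlap. The mesenchymal transition and matrix median was 0.13, 0.24, 0.27 and -0.17 with seminal plasma, against 0.93, 0.79, 0.82 and 0.89 with TGFB3, and the seminal plasma arrays lay around the controls. The median of TGF-beta target genes was 1.20, 0.96, 0.75 and 1.01 with seminal plasma, against 0.81, 1.61, 1.74 and 1.03 with TGFB3. These overlapped and were above all control arrays. The interferon-stimulated median was -1.40, -0.45, -1.08 and -1.04 with seminal plasma, against -0.30, -0.72, -0.56 and -0.31 with TGFB3, so that seminal plasma replicate 2 lay within the TGFB3 range. In RNA from a whole culture, fewer cells that express a gene and less RNA per cell cannot be told apart.

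**Figure D5:**
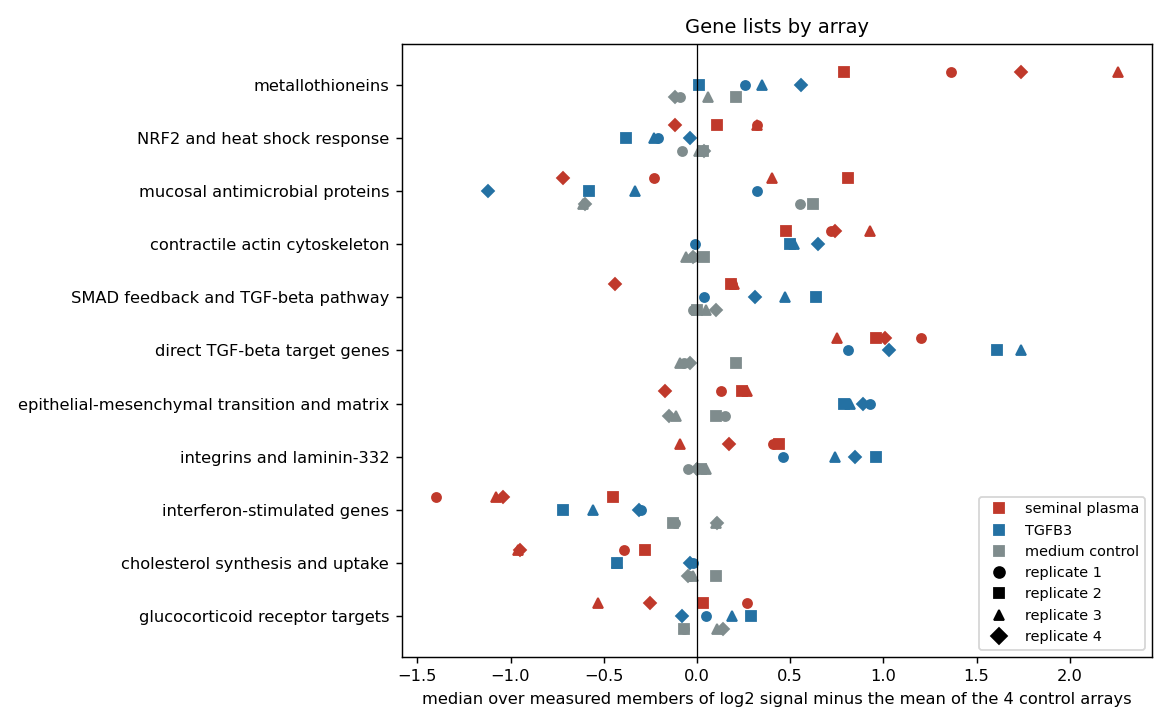
Median over the measured members of 11 gene lists (rows) of the log2 signal minus the mean of the 4 control arrays (horizontal axis), with 1 symbol per array and replicate, seminal plasma in red, TGFB3 in blue and control in grey. The metallothionein medians run from 0.79 to 2.26 with seminal plasma and from 0.01 to 0.56 with TGFB3, while for the matrix list the TGFB3 arrays (0.79 to 0.93) lie above all others.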

How the data were processed

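Ect1 cells were profiled on Affymetrix U133 Plus 2.0 arrays. The authors deposited linear intensities, 1 for each probe set on each array. Partek, RMA, MAS5, GCOS 1.4 and R 2.6.1 are named in the submitters' processing notes, which leave their roles unstated. The values had been scaled: with 2% trimmed from either end, array means ran from 493.3 to 498.4. The labelling is described in 2 ways per the labels and the series' design text, and which one was used was not tested. Each replicate was a biological replicate, per the series' design text, and the number of arrays limits the precision.

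Signals below 16 were set to 16 and log2 was taken, with no further normalization. Of 54613 probe sets, 39873 had 1 symbol, 1522 had several, 13164 had none and 54 had a spreadsheet date in its place. Symbols were updated through the RefSeq gene table (14636 genes current, 2692 updated, 2354 kept), and the brightest probe set stood for each of 19682 genes. limma 3.58.1 in R 4.3.3 (lmFit, eBayes) was fitted to all 12 arrays, with Benjamini-Hochberg adjustment over all probe sets. It was tested on simulated data in which every group had the spread of the control arrays. That test therefore does not cover the outlying seminal plasma replicates 3 and 4. Standard errors come from the spread shared by all 12 arrays in the fit. Other steps used Python 3.11.15 with matplotlib 3.10.9, scipy 1.17.1, pandas 2.3.3 and numpy 2.4.6.

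Named genes were the 14 largest called differences each way with a mean signal of at least 100 in the higher group, up to 4 called members of each of 34 gene lists (the 2 with the smallest p where none was called), 20 genes whatever their values, and the 5 largest TGFB3 changes called both directly and against control. The 35 genes that passed in all 12 fits with 1 array left out, the other metallothioneins, uncalled list members such as FN1, INHBA and HBEGF, and the genes shared by both treatments were added after their values were seen. The comparison, the lists and the rule were chosen with earlier results of these data known. Replicate numbers are not stated to pair cultures. The correlations of same-numbered arrays' deviations ran from -0.091 to 0.154, and those of differently numbered arrays from -0.135 to 0.095. The highest was between control and TGFB3 replicate 1, and these values do not settle whether cultures were paired. Alternatives covered the floor, the scaling, dim probe sets, the arrays in the fit, array weights, an intensity trend, a replicate block and each array left out. Promoter letters came from RefSeq, where 35116 promoters were searched on both strands. A few results that the rule would name were left out.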

Additional observations from a re-analysis of the deposited data

Results flagged for a closer look

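Within the 4 arrays of a treatment, 1 array lay far from the other 3 by Dixon's 95% criterion in 18 of 270 groups of named gene signals with any spread above the floor of 16. In 6 of these (TRD, ZRSR2P1, SUSD4, ANG, RTP4 and MT4) the other 3 values had all been raised to the floor, which by itself sets them apart, so that the criterion says nothing about them. For the other 12, chance flags about 1 in 20 groups. With seminal plasma, replicate 2 was low for RPPH1 (27.0, others 410 to 479) and high for ANG (130, others 6.25 to 11.3). Replicate 3 was high for RTP4 (20.6, others 5.85 to 15.4) and the sperm gene SMCP (40.4, others 9.29 to 16.6). Replicate 4 was low for UGT1A6 (95.6, others 151 to 163) and TGFB1 (491, others 1006 to 1081) and high for TTLL1 (36.2, others 11.3 to 17.1). Replicate 1 was high for CCNB2 (5595, others 3838 to 3978).

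With TGFB3, replicate 1 stood apart for TPX2 (4426, others 6891 to 7068), LCE3D (600, others 279 to 314), MSMB (154, others 40.6 to 47.1), KRT13 (657, others 1060 to 1143), FOXL1 (264, others 375 to 379) and MT4 (42.3, others 11.1 to 13). Replicate 4 stood apart for PTGS2 (575, others 1455 to 1470) and SUSD4 (17.9, others 4.93 to 14.9), replicate 3 for TRD (39.3, others 13.5 to 14.6) and replicate 2 for ZRSR2P1 (16.2, others 7.99 to 10.8). For SMCP and TTLL1 some of the other values were also below the floor.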

How the results depend on the processing

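The number of probe sets called between seminal plasma and TGFB3 (945, of which 54.9% were higher with seminal plasma) followed the processing closely. It was 1454 with a floor of 32, 251 with no floor, 369 with median centring, 2534 among probe sets with a mean signal of at least 100, 1550 with an intensity trend, 394 without seminal plasma replicates 3 and 4, and 12 with only the 8 arrays compared. It ran from 91 to 7055 when single arrays were left out, at 91 without TGFB3 replicate 3, 110 without TGFB3 replicate 2, 1369 when the first seminal plasma array was dropped and 7055 when the second was; leaving out any of the other 10 arrays lowered it. Median centring left 32.2% of calls higher with seminal plasma (119 of 369) and moved the median of all genes from 0.12 to -0.21, so the balance of directions follows the scaling. Under it, 21 of the 35 genes called in every fit with 1 array left out still passed, 11 of 24 higher and 10 of 11 lower. Quantile normalization gave 849 calls and array weights 682. Counting a gene when any of its probe sets passed gave 662 genes in place of 386.

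Seminal plasma against control (1608 probe sets) gave 782 with no floor, 787 with median centring, 3898 with the signal filter, 197 with its own 8 arrays, 539 without seminal plasma replicates 3 and 4, and 270 (without control replicate 4) to 8900 (without seminal plasma replicate 2) with single arrays left out. TGFB3 against control (104) gave 167 with a floor of 32, 60 with no floor, 61 with median centring, 189 with the filter, 300 with its own 8 arrays, 1771 with array weights, 168 with a trend, 296 without seminal plasma replicates 3 and 4, and 35 (without TGFB3 replicate 3) to 142 (without seminal plasma replicate 3) with single arrays left out.

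With the replicate number as a block, 47 probe sets passed between seminal plasma and TGFB3, 307 for seminal plasma against control and 21 for TGFB3 against control. The numbers were not taken to pair the arrays, and 20 of the 35 genes passed with the block. Of 137 named genes, 86 passed in the direct test, and no named difference that passed in either fit turned its direction under any setting tried. The cause of these changes was not tested. With 4 arrays per group and 1 dose and time, signals near the floor and differences between single arrays limit what can be read, and fits without 2 arrays also have fewer samples.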

Other observations

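Some genes that missed the threshold in the direct test lay apart by treatment and were chosen here after their values were seen. CXCL14, a chemokine of stratified epithelium, had 93.5, 729, 200.4 and 26.5 with seminal plasma, against 4363, 1079, 1266 and 8757 with TGFB3 and 1908, 2446, 1121 and 1456 in medium (-4.28 ± 0.95, limma adjusted p 0.0518). All seminal plasma arrays were below every other array. HBEGF, a ligand of the EGF receptor, had 3143, 2585, 1511 and 1756 with seminal plasma, against 412, 942, 831 and 213.3 with TGFB3 and 284, 275, 556 and 594 in medium (2.07 ± 0.48, limma adjusted p 0.059), and all seminal plasma arrays were above every other array.

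GLUL, glutamine synthetase, and MYLIP, an E3 ligase for the LDL receptor, lay below control with both treatments. GLUL had 8759, 6813, 8049 and 7263 with seminal plasma, against 7201, 6909, 7118 and 10630 with TGFB3 and 12348, 17069, 17300 and 18430 in medium, with a direct difference of -0.03. Seminal plasma passed against control (-1.07, limma adjusted p 0.025) and TGFB3 did not (-1.04, limma adjusted p 0.081). For MYLIP the differences from control were -2.39 and -2.07 (limma adjusted p 0.0135 and 0.0651). For both genes the difference between the treatments was smaller than either difference from control, while 1 of the treatments passed and the other did not.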
